A study of Mus musculus with 90 samples.

Results

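The Nr4a genes Nr4a1, Nr4a2 and Nr4a3 encode a family of orphan nuclear receptors, and they were measured here in male resident mice, in 3 parts of the brain, after a social challenge. The members were the rows of the count table whose Ensembl identifiers carry these symbols in GENCODE M21, ENSMUSG00000023034 for Nr4a1, ENSMUSG00000026826 for Nr4a2 and ENSMUSG00000028341 for Nr4a3. They are 3 of the 37991 identifiers in the table, and all 3 passed the filter on low counts in every region. In GENCODE M21 on build GRCm38, Nr4a1 spans chr15:101254269-101274795 on the plus strand, Nr4a2 spans chr2:57106830-57124003 on the minus strand and Nr4a3 spans chr4:48045153-48086447 on the plus strand. The submitters' processing notes name the older build NCBIM37 for the counts, so these positions serve as annotation alone.

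Residents were territory-holding C57BL/6J males that had lived with a female of the strain until shortly before the test. For 5 min a wire-mesh cage stood in the home cage, with an unfamiliar BALB/cJ male inside for the intruder groups and a paper cup for the control groups, so that the controls too met a new object and a moved cage. Frontal cortex, hypothalamus and amygdala were dissected 30, 60 or 120 min later, and poly(A) RNA was sequenced in 90 libraries that form 18 groups of region, time and condition. A group held 5 libraries, with the exceptions of hypothalamus at 30 min (3 controls) and frontal cortex at 120 min (6 controls and 6 intruder-exposed residents). Libraries with the same condition, time and number were taken as the same animal. That gives 32 animals, 28 of them with a library from each region, while the design text speaks of RNA pooled for libraries. If animals were pooled, the p-values measure the spread between pools. Undisturbed animals were not analysed here, so no level before the cage is known.

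NR4A receptors act as transcription factors without a known natural ligand in the classical pocket, and their activity follows mainly from how much protein a cell makes. The genes belong to the immediate-early class: calcium and cyclic AMP signals after neuronal firing induce them within minutes, largely through the factor CREB and its coactivators, and the transcripts are short-lived. Nr4a1 and Nr4a3 are best known in brain as markers of recent activity, while Nr4a2 is also a constant feature of certain neurons, among them midbrain dopamine neurons, whose transmitter genes depend on it, and neurons of the claustrum and the deepest cortical layers.

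Bases before the start that RefSeq gives for each gene are shown to let a reader see what these windows share. The sequences are from RefSeq on GRCm38.p6, 5′ to 3′ on the strand of the gene, from chr15:101266596-101266845 (plus), chr2:57124004-57124253 (minus) and chr4:48045055-48045152 (plus). The starts of RefSeq and GENCODE M21 are not the same: the Nr4a1 window lies inside the GENCODE span of the gene and outside its exons, and the last 152 of the 250 bases of Nr4a3, chr4:48045055-48045304, lie in its first GENCODE exon and are not printed. Capitals mark TGACG, the core of the cyclic AMP response element bound by CREB, which reads CGTCA on the other strand.
Nr4a1: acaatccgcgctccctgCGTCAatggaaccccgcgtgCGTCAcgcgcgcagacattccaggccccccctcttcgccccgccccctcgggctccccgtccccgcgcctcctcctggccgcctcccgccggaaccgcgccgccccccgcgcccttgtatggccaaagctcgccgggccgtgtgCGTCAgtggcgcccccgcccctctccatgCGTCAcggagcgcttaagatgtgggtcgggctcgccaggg
Nr4a2: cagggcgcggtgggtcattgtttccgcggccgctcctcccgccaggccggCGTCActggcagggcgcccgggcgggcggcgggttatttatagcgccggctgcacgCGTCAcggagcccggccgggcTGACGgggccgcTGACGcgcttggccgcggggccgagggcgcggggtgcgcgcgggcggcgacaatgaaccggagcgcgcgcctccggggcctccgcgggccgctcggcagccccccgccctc
Nr4a3: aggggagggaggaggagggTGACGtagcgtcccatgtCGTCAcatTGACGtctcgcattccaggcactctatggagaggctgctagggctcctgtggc
Each of the 3 windows of 250 bases held 4 matches of TGACG, counted on both strands, 3 of those of Nr4a3 in the printed bases. Among 27025 mouse promoters cut to the same length, 17.9% held at least 1 match and 41, or 0.152%, held at least 4. The windows are rich in G and C, with 74.4% in Nr4a1, 80.0% in Nr4a2 and 63.6% in Nr4a3. The shares are over all these promoters, whatever their G and C content. The full palindrome TGACGTCA, which contains TGACG on both strands, was found in none of the 3 and in 1.62% of all promoters. The element that NR4A proteins bind themselves, AAAGGTCA, had no match in the 3 windows on either strand, against 1.31% of all promoters, and the CArG box of serum response factor had none, against 1.4%. A match is a run of letters and no match says only that the letters are not in this window.

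Libraries held 38601039 to 58858458 reads assigned to genes, and the members had 260 reads (Nr4a2 in a hypothalamus library) to 16692 reads (Nr4a1 in a frontal cortex library). Levels are given as CPM, read counts scaled to a common depth, on library sizes scaled by the trimmed mean of M-values (TMM). In the column names of the count table every one of the 28 libraries of the 30 min groups carries the tag ISO and every one of the 62 libraries of the 60 and 120 min groups the tag CERV. The sources used here do not say what the tags stand for, so the step from 30 min to a later time cannot be told apart from that tag, while the step from 60 to 120 min lies within 1 tag. Marker genes set the regions apart in part: the cortex list of 5 genes summed to 1377 to 2008 CPM in frontal cortex and 41.1 to 207.5 CPM in hypothalamus, and the hypothalamus list summed to 642.4 to 1741 CPM in hypothalamus and at most 78.36 CPM in amygdala. The amygdala list did not mark that dissection, with 93.74 to 163.3 CPM in amygdala and 256.8 to 420.1 CPM in hypothalamus, while a striatum list of 7 genes ran from 267.9 to 2498 CPM between amygdala libraries.

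Frontal cortex was the region with the most Nr4a1 and Nr4a2 and hypothalamus the region with the least of all 3 members. In controls over all times Nr4a1 stood at 154.7 ± 31.97 CPM (SD, n = 16) in frontal cortex, 61.1 ± 17.97 CPM (n = 15) in amygdala and 18.9 ± 6.40 CPM (n = 13) in hypothalamus. Nr4a2 stood at 40.4 ± 8.52, 16.3 ± 5.65 and 10.8 ± 3.14 CPM in the same order. Nr4a3 stood at 45.6 ± 12.9, 40.6 ± 13.3 and 14.25 ± 4.18 CPM. The lowest control of Nr4a1 in frontal cortex, at 98.5 CPM, lay above the highest in amygdala, at 90.6 CPM, and the lowest in amygdala, 28.7 CPM, just above the highest in hypothalamus, 28.4 CPM, so its ranges did not overlap between regions. The ranges of Nr4a3 overlapped widely between frontal cortex (27.9 to 65.5 CPM) and amygdala (16.8 to 63.0 CPM).

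**Figure D1:**
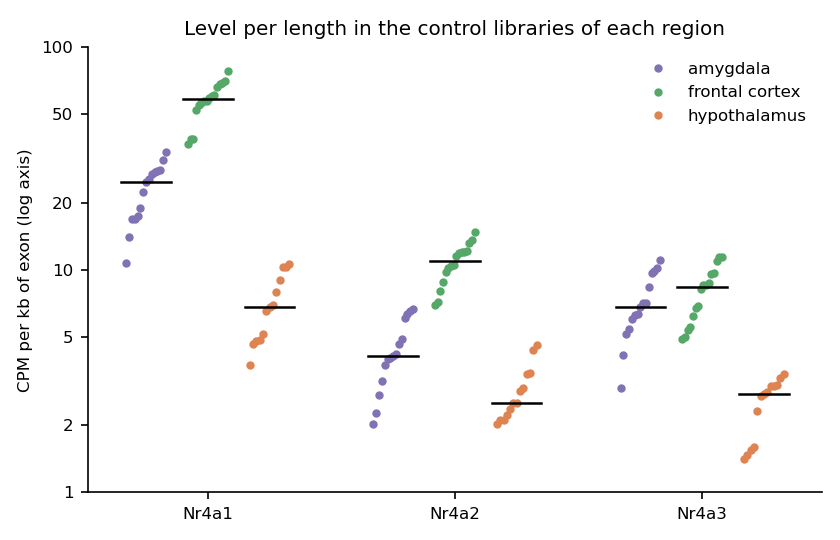
Level of each member per kb of exon (CPM per kb, log axis) in every control library of the 3 regions; points are libraries of all times and black bars are medians. Nr4a1 separates the 3 regions without overlap, Nr4a2 is highest in frontal cortex, and Nr4a3 has overlapping ranges in frontal cortex and amygdala.

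Regions of an animal were compared in controls with an edgeR quasi-likelihood F test that kept the animal as a block, averaged over the 3 times, with Benjamini-Hochberg adjustment over all 18337 genes tested. Genes with an adjusted p below 0.05 are called. Between frontal cortex and amygdala 2 of the 3 members were called, where 68.3% of all genes tested were called. Nr4a1 was higher in frontal cortex by a log2 fold change of 1.38 ± 0.084 (SE, edgeR adjusted p = 1.8e-20) and Nr4a2 by 1.35 ± 0.163 (edgeR adjusted p = 2.6e-10). Nr4a3 differed by 0.20 ± 0.095 and missed the threshold (edgeR adjusted p = 0.052), which DESeq2 size factors (0.0453) and limma voom (0.0476) brought under it. Leaving out the libraries of replicate number 2 gave 0.33 and those of number 4 gave 0.24, both called.

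Against hypothalamus all 3 members were higher in frontal cortex, where 81.8% of genes were called and 39.6% called higher, and all 3 were higher in amygdala, where 72.7% were called and 36.8% called higher. For frontal cortex the log2 differences were 2.98 ± 0.0998 for Nr4a1, 1.92 ± 0.182 for Nr4a2 and 1.67 ± 0.108 for Nr4a3. For amygdala they were 1.59 ± 0.094 for Nr4a1, 0.56 ± 0.179 for Nr4a2 (edgeR adjusted p = 0.00436) and 1.47 ± 0.107 for Nr4a3. The amygdala call of Nr4a2 was lost when the libraries of replicate number 3 were left out, which gave 0.41. With shares of called genes this high, a call between regions says little about the family. In bulk tissue fewer cells of a type and less RNA per cell cannot be told apart, which holds for every level given here.

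Per kb of exon, which makes genes comparable, Nr4a1 was the leading member in each region. Its controls averaged 57.7 CPM per kb in frontal cortex, 22.8 in amygdala and 7.04 in hypothalamus. Nr4a2 averaged 10.8, 4.35 and 2.88 CPM per kb, and Nr4a3 7.98, 7.09 and 2.49 CPM per kb. In the order of these 9 levels Nr4a1 in frontal cortex (36.8 to 78.4 CPM per kb) stood clear of Nr4a1 in amygdala (10.7 to 33.8 CPM per kb). All later neighbours had overlapping ranges: Nr4a1 in amygdala, Nr4a2 in frontal cortex, Nr4a3 in frontal cortex, Nr4a3 in amygdala, Nr4a1 in hypothalamus, Nr4a2 in amygdala, Nr4a2 in hypothalamus and Nr4a3 in hypothalamus.

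The first question of the design was whether the intruder changed the members beyond the cage itself. In none of the 9 comparisons of intruder and control did edgeR call a member, 0 of 27 tests, with 2 of the 27 at an unadjusted p below 0.05. DESeq2 and limma voom called 0 of 27 as well. The share of all genes called was 0.538% in amygdala at 120 min, 0.192% in hypothalamus at 120 min and 0% in the other 7 comparisons.

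The lowest unadjusted p was that of Nr4a1 in hypothalamus at 30 min, where no library of one condition overlapped the other. The 3 controls stood at 28.4, 27.6 and 27.5 CPM and the 5 intruder libraries at 50.4, 30.3, 38.9, 31.6 and 32.1 CPM. The log2 fold change was 0.40 ± 0.148 (SE), with a 95% interval of 0.11 to 0.69, an unadjusted p of 0.0122 and, adjusted in edgeR, a p of 1.00. Fos, which encodes a subunit of the AP-1 factor and is the classical activity marker, was at 33.0, 33.9 and 33.7 CPM in controls and 66.1, 44.3, 54.8, 40.3 and 37.2 CPM in intruder libraries in the same order. Both genes were highest in the same library. In the same region Nr4a1 was at 19.95 ± 2.69 CPM in controls and 17.35 ± 2.72 CPM in intruder libraries at 60 min, and at 12.4 ± 1.44 and 13.6 ± 1.90 CPM at 120 min, with overlapping ranges (SD, n = 5 each).

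In amygdala at 30 min Nr4a1 was at 90.6, 68.7, 74.0, 71.8 and 75.0 CPM in controls and 89.9, 81.8, 91.3, 103.4 and 88.0 CPM in intruder libraries. Without control 1, which stood apart from the other 4, the groups would not overlap, but with it the log2 fold change was 0.26 ± 0.154 (edgeR adjusted p = 1.00). In frontal cortex at 30 min the comparison of Nr4a1 moved with 2 libraries. Controls were at 210.1, 153.5, 162.4, 189 and 161 CPM, and the intruder libraries at 179, 164, 141, 337.8 and 94.3 CPM. The log2 fold change was 0.064 with all libraries, -0.28 without intruder library 4, the one at 337.8 CPM, and 0.23 without intruder library 5, the one at 94.3 CPM.

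Nr4a3 in frontal cortex at 60 min was the only other member below an unadjusted p of 0.05, in the direction of less transcript. Controls were at 65.0, 46.6, 65.5, 62.9 and 55.4 CPM and intruder libraries at 52.8, 36.8, 52.5, 46.3 and 36.9 CPM, so that 4 of 5 controls lay above every intruder library. The log2 fold change was -0.39 ± 0.189, with a 95% interval of -0.76 to -0.021, an unadjusted p of 0.0468 and, adjusted in edgeR, a p of 1.00. At 120 min the order was the other way, with 32.1 ± 4.04 CPM in controls and 38.6 ± 6.54 CPM in intruder libraries (SD, n = 6 each, log2 fold change 0.27 ± 0.174). Intruder library 1, the highest of that group at 48.1 CPM, had the highest amygdala and hypothalamus scores of its group, 0.99 and 1.01 above the group means of those log2 scores, and without it the change was 0.19. The part of that library's tissue in the comparison was not tested. A 2-degree-of-freedom test of whether the intruder effect differed between times gave an unadjusted p of 0.0494 and, adjusted in edgeR, a p of 0.971.

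Nr4a2 had its largest difference in frontal cortex at 30 min, with 51.1, 32.9, 44.5, 26.7 and 39.0 CPM in controls and 56.3, 46.9, 20.9, 73.6 and 67.3 CPM in intruder libraries. The intruder group held both the highest and the lowest library, and the log2 fold change of 0.45 ± 0.236 did not pass (edgeR adjusted p = 0.771). In amygdala and hypothalamus the 6 log2 fold changes of Nr4a2 lay between -0.13 and 0.079. The 95% intervals of Nr4a2 in amygdala reached from -0.73 to 0.60, and its standard errors there, 0.304 to 0.3065, were the largest of the 27 tests of intruder against control.

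**Figure D2:**
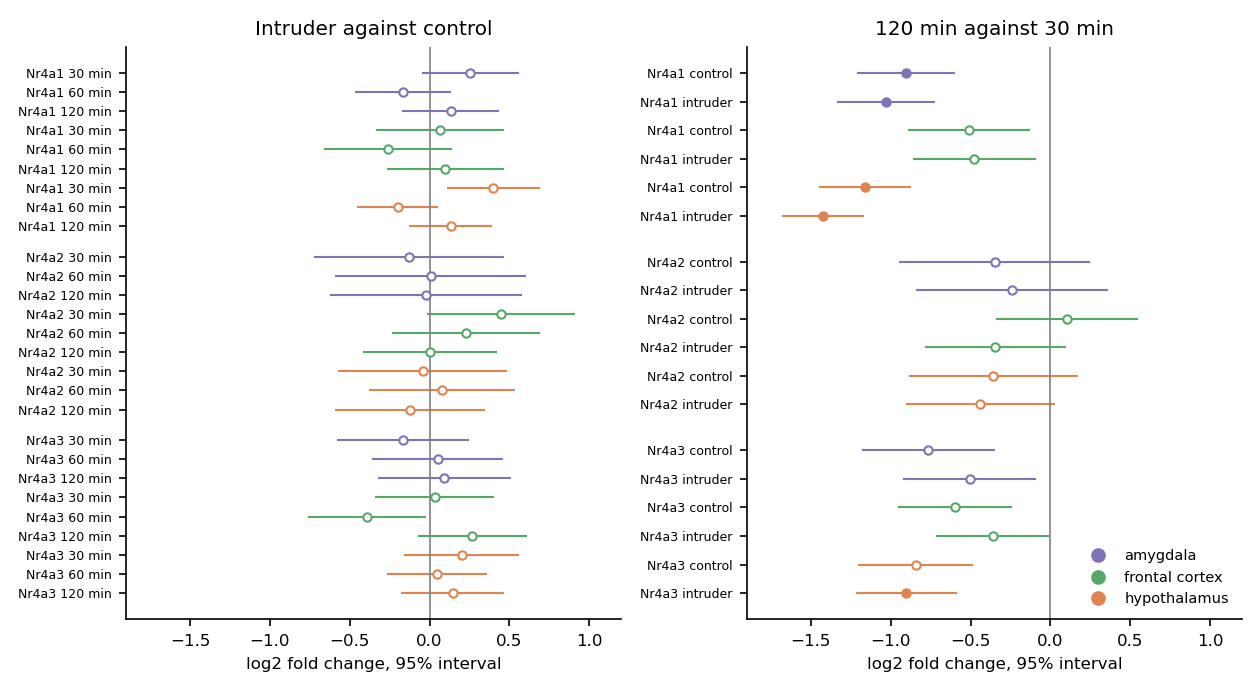
Log2 fold changes with 95% intervals from edgeR for each member, intruder against control at 30, 60 and 120 min (left) and 120 against 30 min within controls or within intruder-exposed residents (right); colours are regions and filled points are called. No point is filled on the left, while on the right Nr4a1 is filled in amygdala and hypothalamus in both conditions and Nr4a3 in hypothalamus of intruder-exposed residents.

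Tests of whether the intruder effect differed between times called none of the 9 combinations of member and region in edgeR (2 at an unadjusted p below 0.05; 0 called by DESeq2 and 0 by limma voom), where 0%, 0% and 0.0113% of genes were called in amygdala, frontal cortex and hypothalamus. The other member below 0.05 beside Nr4a3 was Nr4a1 in hypothalamus, with an unadjusted p of 0.0177 and, adjusted in edgeR, a p of 0.847. Its log2 fold changes were 0.40 at 30 min, -0.20 at 60 min and 0.13 at 120 min. Tests of whether the effect differed between regions called no member at any time, with 0%, 0% and 0.0164% of genes called at 30, 60 and 120 min. The unadjusted p-values of these 9 tests were 0.0881 to 0.961, so that 0 were below 0.05, and limma voom called 0 of 9.

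The second question was how the members ran with time after the cage, in each condition. Nr4a1 fell from 30 to 120 min in amygdala and hypothalamus, in controls as well as in intruder-exposed residents, a step that carries the change of tag. Nr4a3 fell from 60 to 120 min in frontal cortex controls. In hypothalamus of intruder-exposed residents it fell from 30 to 120 min and from 60 to 120 min. Nr4a2 was called in no comparison of times. The falls of Nr4a1 were thus called in animals that met a cage without an intruder.

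Nr4a1 in hypothalamus showed the clearest course. The controls went from 28.4, 27.6 and 27.5 CPM at 30 min to 18.6, 24.0, 21.3, 18.2 and 17.5 CPM at 60 min and 12.8, 13.0, 10, 13.8 and 12.5 CPM at 120 min, with no overlap between any 2 times. From 30 to 120 min the log2 fold change was -1.16 ± 0.147 (edgeR adjusted p = 1.3e-04), in a comparison where 0.175% of genes were called. From 60 to 120 min, within the tag CERV, it was -0.68 ± 0.131 (edgeR adjusted p = 0.0495, 0.0396% of genes called), a call that was lost in 9 of the 10 fits that left out 1 library.

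Intruder-exposed residents showed Nr4a1 in hypothalamus falling between 30 and 60 min. They went from 50.4, 30.3, 38.9, 31.6 and 32.1 CPM to 20.3, 12.95, 18.2, 17.1 and 18.2 CPM and then to 14.8, 11.4, 15.1, 15.2 and 11.7 CPM. The log2 fold change from 30 to 60 min was -1.07 ± 0.129 (edgeR adjusted p = 4.8e-05, 0.0792% of genes called), and in controls it was -0.48 ± 0.146 (edgeR adjusted p = 0.393, 0.017% called). Every 30 min library lay above every later one, and the 60 and 120 min libraries overlapped. From 30 to 120 min the change was -1.43 ± 0.131 (edgeR adjusted p = 2.1e-07, 1.93% called). The endothelial list of 6 genes was lower at 120 than at 30 min without overlap in hypothalamus, at 107.7 to 116.6 and 93.8 to 107.2 CPM in controls and at 108.9 to 119.7 and 53.2 to 91.3 CPM in intruder-exposed residents. Within groups that score had r = -0.25 with Nr4a1 (n = 28, permutation adjusted p = 0.519), and its part in the falls was not tested.

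In amygdala the Nr4a1 controls of 30 and 60 min overlapped and those of 120 min lay apart. The 60 min controls were at 59.9, 83.6, 66.2, 50.5 and 73.2 CPM beside 68.7 to 90.6 CPM at 30 min, and the 120 min controls were at 45.0, 45.1, 28.7, 46.7 and 37.6 CPM, below all earlier ones. The change from 30 to 120 min was -0.91 ± 0.156 (edgeR adjusted p = 0.00995), where 0.145% of genes were called. From 60 to 120 min, within 1 tag, it was -0.72 ± 0.156 and did not pass (edgeR adjusted p = 0.152, 0.0232% called). In intruder-exposed residents the libraries went from 81.8 to 103.4 CPM at 30 min to 85.9, 53.3, 65.1, 44.0 and 48.7 CPM at 60 min and 48.5, 42.2, 54.1, 35.1 and 42.5 CPM at 120 min. The change was -0.61 ± 0.155 from 30 to 60 min (edgeR adjusted p = 0.0162, 7.41% called) and -1.03 ± 0.156 from 30 to 120 min (edgeR adjusted p = 1.3e-04, 15% called), while -0.42 ± 0.155 from 60 to 120 min did not pass (edgeR adjusted p = 0.322, 0.0695% called). The endothelial list of 6 genes was also lower at the later time, with median sums of 136 CPM at 30 min and 108.7 CPM at 120 min in amygdala controls and 136.5 and 86.6 CPM in intruder-exposed residents. Within groups of amygdala that score had r = -0.27 with Nr4a1 (permutation adjusted p = 0.524) and -0.62 with Nr4a3 (n = 30, permutation adjusted p = 0.00765), and its part in the changes was not tested.

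The leading index sequence of the libraries takes 1 or 2 values in each group, and in frontal cortex at 120 min it cannot be told apart from the condition. From 60 to 120 min it changed without a shared value in hypothalamus of both conditions and in frontal cortex controls. These steps cannot be told apart from the index. With that index as a block in amygdala the changes from 30 to 120 min were as large, -0.96 in controls and -1.12 in intruder-exposed residents, but their adjusted p-values rose to 0.653 and 0.343. The call of intruder-exposed residents from 30 to 60 min was lost as well (-0.53, adjusted p = 0.782). In frontal cortex edgeR did not call Nr4a1 between any times, where 35.4% of genes were called from 30 to 60 min in controls and 45.5% in intruder-exposed residents. The controls there were called over the 3 times together by limma voom. Controls were at 175.2 ± 23.6 CPM at 30 min, 171.4 ± 14.6 CPM at 60 min (n = 5 each) and 123.6 ± 24.3 CPM at 120 min (n = 6), a log2 fold change of -0.51 ± 0.196 from 30 to 120 min with a test that did not pass (edgeR adjusted p = 0.128), where 4.42% of genes were called. Without control 4 of 120 min the control test over the 3 times had an edgeR adjusted p of 0.0498. Without intruder library 5 of 30 min, at 94.3 CPM the lowest of its group for Nr4a1, the intruder-exposed residents passed, with -0.53 from 30 to 60 min (edgeR adjusted p = 0.0221) and -0.64 from 30 to 120 min (edgeR adjusted p = 0.0152). Nr4a3 also passed without that library from 30 to 120 min, at -0.51 (edgeR adjusted p = 0.0395).

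Nr4a3 had its lowest values at 120 min. In frontal cortex controls it was at 49.9, 39.4, 54.6, 49.0 and 49.0 CPM at 30 min, at 65.0, 46.6, 65.5, 62.9 and 55.4 CPM at 60 min, and between 27.9 and 38.3 CPM with a median of 31.2 CPM in the 6 libraries of 120 min, below every earlier control. The change from 60 to 120 min was -0.88 ± 0.181 (edgeR adjusted p = 0.00808), but 15.9% of all genes were called in this comparison. Reads in no gene were 8.99% to 9.71% at 60 min and 9.46% to 11.3% at 120 min in these controls, and alignments that were not unique 10.74% to 11.34% and 10.12% to 10.74%, and their part in the change was not tested. The endothelial list had median sums of 165.2, 143.1 and 132.2 CPM in these controls at 30, 60 and 120 min, with r = -0.05 to Nr4a3 within groups of the region. In intruder-exposed residents of frontal cortex the 60 and 120 min libraries overlapped, at 36.8 to 52.8 CPM and 28.5 to 48.1 CPM, and the change of -0.22 ± 0.181 did not pass (edgeR adjusted p = 0.406, 22.9% called).

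In hypothalamus the Nr4a3 controls of 30 and 60 min overlapped, with a log2 fold change of -0.0056 ± 0.184. Controls were at 18.7, 15.8 and 17.2 CPM, then at 17.2, 17.4, 19.5, 16.1 and 15.4 CPM, and at 120 min at 9.12, 13.3, 8.42, 8.12 and 8.90 CPM. The 120 min controls lay below all earlier ones, but the change from 60 to 120 min, -0.84 ± 0.163, just missed the threshold (edgeR adjusted p = 0.0504), and without control 2 of 120 min, the library at 13.3 CPM, it was -0.99 and passed. That library had the highest cortex marker score of its group, 0.76 above the group mean on the log2 scale, and with the cortex score as a covariate the change was -0.92 and passed (edgeR adjusted p = 0.022). Over the 3 times together the controls were called (edgeR adjusted p = 0.0284, 0.181% of genes), a call kept in 3 of 13 fits that left out 1 library and lost with the replicate number as a block (adjusted p = 0.0613) and with the striatum score (0.0532).

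Intruder-exposed residents went from 28.6, 12.6, 22.9, 17.3 and 17.6 CPM of Nr4a3 to 18.5, 15.1, 19.1, 16.5 and 19.3 CPM and to 13.2, 8.35, 11.5, 11.1 and 8.87 CPM in hypothalamus. The change from 60 to 120 min was -0.74 ± 0.162 (edgeR adjusted p = 0.0292, 0.441% called), with no overlap between these times. That call was lost in 7 of 10 fits that left out 1 library and with the replicate number as a block (adjusted p = 0.0786). The endothelial list of 6 genes summed to 91.2 to 134.6 CPM at 60 min and 53.2 to 91.3 CPM at 120 min in these residents, and to 93.8 to 107.2 CPM in the 120 min controls. Within groups that score had r = -0.16 with Nr4a3 (n = 28, permutation adjusted p = 0.658), and its part in the change was not tested. From 30 to 120 min the change was -0.90 ± 0.162 (edgeR adjusted p = 0.00293), a call kept in every fit that left out 1 library.

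In amygdala Nr4a3 had a like size of change without a pairwise call in edgeR, while DESeq2 called the intruder-exposed residents from 60 to 120 min. Over the 3 times together the intruder-exposed residents were called (edgeR adjusted p = 0.041, 12.9% of genes), a call lost in 11 of 15 fits that left out 1 library and with the leading index as a block (adjusted p = 0.827). Controls were at 46.4 ± 12.1, 47.9 ± 9.52 and 27.35 ± 7.28 CPM at 30, 60 and 120 min, and intruder-exposed residents at 41.4 ± 6.28, 49.5 ± 12.1 and 29.1 ± 9.45 CPM (SD, n = 5 each). From 60 to 120 min the log2 fold changes were -0.81 ± 0.213 (edgeR adjusted p = 0.209, 0.0232% called) and -0.77 ± 0.212 (edgeR adjusted p = 0.166, 0.0695% called). Without intruder library 1 of 120 min, at 45.6 CPM, the change from 30 to 120 min was -0.74 and passed (edgeR adjusted p = 0.0206). That library had the highest cortex score of its group, 0.53 above the group mean on the log2 scale, its lowest striatum score (-0.91) and its highest Nr4a2 (0.79). Nr4a3 in amygdala libraries was related to marker genes of cortex and striatum. With the cortex marker score of each library as a covariate, an alternative chosen after seeing the data, the control change from 60 to 120 min was -0.72 with an adjusted p of 0.0181, and that of intruder-exposed residents -0.50 with an adjusted p of 0.117. The mean cortex score of the latter was 5.39 at 60 min and 5.00 at 120 min, and that of controls 5.42 and 5.28.

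**Figure D3:**
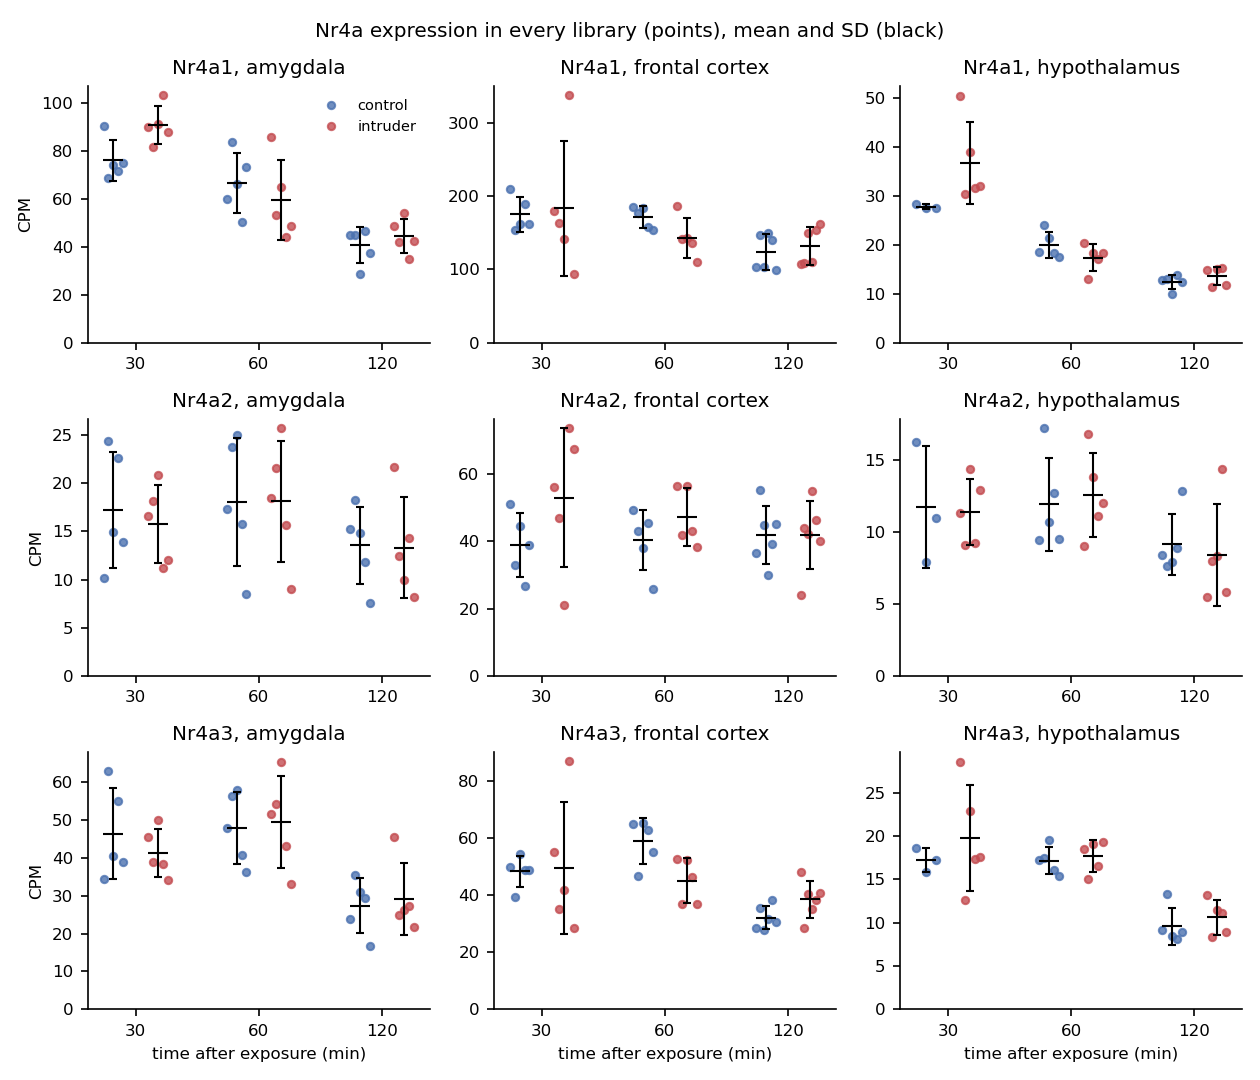
CPM of each member (rows) in each region (columns) against time after exposure in min; points are libraries, blue for control and red for intruder, with the mean and SD in black. Nr4a1 is lower at later times in hypothalamus and amygdala, Nr4a3 is lowest at 120 min, and Nr4a2 scatters widely within groups; 1 intruder library of frontal cortex at 30 min stands at 337.8 CPM of Nr4a1.

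Nr4a2 was called between no times, and whether its course differed from that of the other members was not tested. From 60 to 120 min its log2 fold changes were below 0 in controls and intruder-exposed residents of amygdala (-0.42 and -0.44) and of hypothalamus (-0.38 and -0.59), as were those of Nr4a1 and Nr4a3. With the striatum score as a covariate, chosen after seeing the data, the change of Nr4a2 in amygdala controls from 30 to 120 min was -0.55 and passed (edgeR adjusted p = 0.0416). In controls it was at 17.2 ± 6.02, 18.1 ± 6.68 and 13.5 ± 4.04 CPM in amygdala at 30, 60 and 120 min, at 38.8 ± 9.56, 40.4 ± 9.04 and 41.9 ± 8.63 CPM in frontal cortex, and at 11.7 ± 4.21, 11.9 ± 3.24 and 9.13 ± 2.12 CPM in hypothalamus. Tests over the 3 times gave edgeR adjusted p-values of 0.81, 0.934 and 0.706 in controls, where 0.232%, 33.4% and 0.181% of genes were called. In intruder-exposed residents they were 0.555, 0.414 and 0.363, where 12.9%, 46.1% and 1.49% were called. The largest step was in hypothalamus of intruder-exposed residents from 60 to 120 min, -0.59 ± 0.237, with an unadjusted p of 0.0204 and, adjusted in edgeR, a p of 0.333. In frontal cortex the marker score of claustrum and deep layer neurons differed between libraries along with Nr4a2, and with that score as a covariate the change from 30 to 60 min was -0.49 in controls (adjusted p = 0.0162) against 0.047 without it.

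The balance of Nr4a1 and Nr4a3 within a library differed between times. The ratio of the 2 genes in a library does not depend on the library size, and it was compared between neighbouring times by an exact permutation test, two-sided and adjusted over 12 tests, a comparison chosen after the values had been seen. In hypothalamus of intruder-exposed residents the log2 ratio of Nr4a1 to Nr4a3 was 0.91 ± 0.201 at 30 min, -0.038 ± 0.135 at 60 min and 0.37 ± 0.120 at 120 min (SD, n = 5 each). The fall by 0.95 and the later rise of 0.41 each separated the libraries without overlap (exact p = 0.0079, adjusted p = 0.0317, the smallest p that 5 against 5 libraries allow being 0.0079).

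Amygdala of intruder-exposed residents also had a fall of the log2 ratio from 30 to 60 min, by 0.89 from 1.14 to 0.26 without overlap (exact permutation adjusted p = 0.0317). The mean striatum score of these groups was 6.25 at 30 min and 5.75 at 60 min. Within groups of amygdala that score had r = -0.82 with Nr4a3 and 0.21 with Nr4a1, and its part in the ratio was not tested. Hypothalamus controls had a fall by 0.48 from 0.69 to 0.21 (exact permutation adjusted p = 0.0468), and frontal cortex controls a rise by 0.38 from 60 to 120 min (exact permutation adjusted p = 0.0468). The last was lost in 10 of 11 sets that left out 1 library, and with 3 controls at 30 min such sets of the hypothalamus controls could not pass. The other 7 steps had adjusted p-values of 0.0952 to 0.667. Steps from 30 min carry the change of tag from ISO to CERV, and the rise from 60 to 120 min in hypothalamus does not. The leading index of the libraries differed between 60 and 120 min there, so this rise cannot be told apart from the index.

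**Figure D4:**
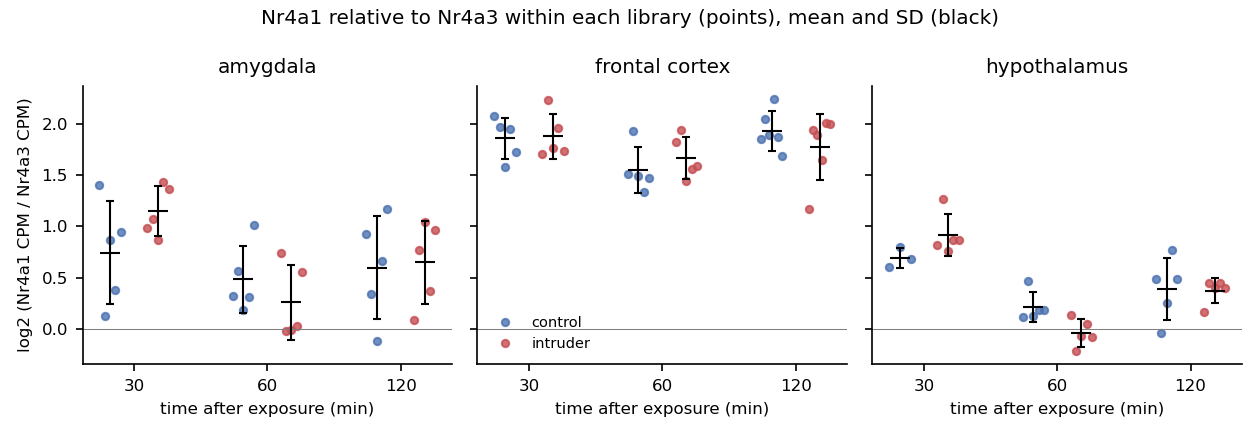
Log2 ratio of Nr4a1 CPM to Nr4a3 CPM in each library (points) against time after exposure in min for the 3 regions, blue for control and red for intruder, with mean and SD in black. In intruder-exposed hypothalamus the ratio is lowest at 60 min, with a mean of -0.038 against 0.91 at 30 min and 0.37 at 120 min.

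Members differed in how much they varied between animals of a group. The coefficient of variation of Nr4a2 had a median over the 6 groups of 34.9% in amygdala, its highest, with 23.4% in frontal cortex and 25.3% in hypothalamus. For Nr4a1 the medians, in that order of regions, were 17.4%, 19.3% and 13.7%, and for Nr4a3 25.3%, 15.3% and 14.6%. Nr4a2 thus had the highest median in each region, a difference that was not tested, and in amygdala it ranged from 7.56 to 25.7 CPM. In frontal cortex at 30 min the intruder group alone gave Nr4a1 a coefficient of variation of 50.3% and Nr4a3 one of 47.0%, through library 4 (337.8 and 87.1 CPM, with Fos at 126.8 CPM) and library 5 (94.3 and 28.4 CPM, with Fos at 32.7 CPM).

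Within groups, 1 pair of members passed the test of varying together in each region, and whether the relations differed between regions was not tested. Deviations from the group means of log2 CPM were correlated for 3 pairs of members in 3 regions, with permutation p-values adjusted over 9. In amygdala Nr4a2 and Nr4a3 varied together, with Pearson r = 0.91 and Spearman rho = 0.9 (n = 30, permutation adjusted p = 9.0e-05 for each, r = 0.9 without the 2 samples farthest from the median), while the relations of Nr4a1 did not pass (r = 0.04 with Nr4a2 and 0.17 with Nr4a3, permutation adjusted p = 0.866 and 0.65). The p of 1.0e-05 behind the first is the smallest that 100000 permutations can give.

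In the other 2 regions the pair that passed was Nr4a1 and Nr4a3. In hypothalamus r was 0.73 and rho 0.75 (n = 28, permutation adjusted p = 0.00144 and 0.00108, r = 0.62 without the 2 farthest samples), and within controls alone r was 0.34 (permutation adjusted p = 0.616). In frontal cortex r was 0.75 and rho 0.54 (n = 32, permutation adjusted p = 0.00198 and 0.016), and without the 2 farthest samples r was 0.46 and missed the threshold (permutation adjusted p = 0.0576), so the strength of this relation rested on them. No relation of Nr4a2 passed in these regions, with r between 0.09 and 0.26.

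Between regions of the same animal no relation of the deviations passed for both r and rho. Of 9 relations only Nr4a1 between amygdala and frontal cortex passed for Pearson r, at 0.46 (n = 30, permutation adjusted p = 0.0219), and its Spearman rho of 0.5 did not (permutation adjusted p = 0.0571), nor did r = 0.38 without the 2 farthest samples (permutation adjusted p = 0.0503). Nr4a3 had r = 0.47 between amygdala and hypothalamus (n = 28, permutation adjusted p = 0.0509), and between frontal cortex and hypothalamus r = 0.34, or 0.56 without the 2 farthest samples. No relation of Nr4a2 between regions passed, with r from -0.18 to 0.15 (permutation adjusted p of 0.531 to 0.893), though r between amygdala and frontal cortex went from -0.18 to -0.48 without the 2 farthest samples.

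The variation of Nr4a2 between libraries of amygdala and of frontal cortex moved with scores of marker genes, and in hypothalamus no list passed for any member. Marker scores, which average log2(CPM + 1) over the genes of a list, were correlated with the members within groups, 90 relations of 10 lists, 3 regions and 3 members with permutation p-values adjusted over all of them. A relation passed where the adjusted p of both r and rho was below 0.05. In amygdala Nr4a2 was higher in libraries with a high cortex score (Tbr1, Slc17a7, Neurod6, Rorb and Fezf2; r = 0.96, rho = 0.95, n = 30, permutation adjusted p = 1.5e-04) and lower in those with a high score of striatal medium spiny neurons (Drd1, Drd2, Adora2a, Ppp1r1b, Rgs9, Penk and Tac1; r = -0.92, rho = -0.92, permutation adjusted p = 1.5e-04). Nr4a3 had r = 0.81 with the cortex score and -0.82 with the striatum score. Nr4a1 passed with no list in any region, with -0.01 and 0.21 for these 2 lists in amygdala.

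The lists are not independent of each other, since their scores come from the same libraries, and what ties them was not tested. In amygdala Nr4a2 and Nr4a3 passed with 6 of the 10 lists each, and in frontal cortex Nr4a3 passed with none. The hippocampus list passed in amygdala for r alone (-0.53 and -0.54, permutation adjusted p = 0.0377 for each). Those that passed included the amygdala list with r = 0.73 for both members and the midbrain dopamine list with r = -0.77 and -0.76. Lists of cell types passed too, endothelial cells with r = -0.61 for Nr4a2 and -0.62 for Nr4a3 (permutation adjusted p = 0.013 and 0.00765) and microglia and monocytes (Cx3cr1, P2ry12, Csf1r, Tmem119, Ly6c2 and Ccr2) with r = -0.56 and -0.59 (permutation adjusted p = 0.0164 and 0.013). Of the midbrain list En1, Pitx3 and Slc6a3 stayed below 1 CPM in every amygdala and every frontal cortex library, and the list summed to at most 9.459 CPM in amygdala. The cortex list summed to 297.5 to 1317 CPM in amygdala libraries, and its groups overlapped between the conditions at each time. How much of the Nr4a2 and Nr4a3 level in amygdala came with cortical tissue was not tested. Whether the cortex and striatum scores stand for tissue around the amygdala or for cells within it was not tested either.

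In frontal cortex Nr4a2 was higher in libraries with a high score for claustrum and deep cortical layers (Ntng2, Gnb4, Oprk1, Lxn, Synpr, Ccn2, Cplx3 and Nxph4), at r = 0.84 and rho = 0.79 (n = 32, permutation adjusted p = 1.5e-04 for each, r = 0.69 without the 2 farthest samples). Nr4a2 was not on that list. The list summed to 184 to 262.3 CPM in the 30 min controls and 178.2 to 318.7 CPM in the 30 min intruder libraries, the comparison with the largest Nr4a2 difference. Intruder library 3 of that group had the least Nr4a2 (20.9 CPM) and also the least Oprk1 of the group, 3.045 CPM against 7.691 to 17.88 CPM in the others. Whether the sampled depth of cortex accounts for the Nr4a2 values was not tested.

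**Figure D5:**
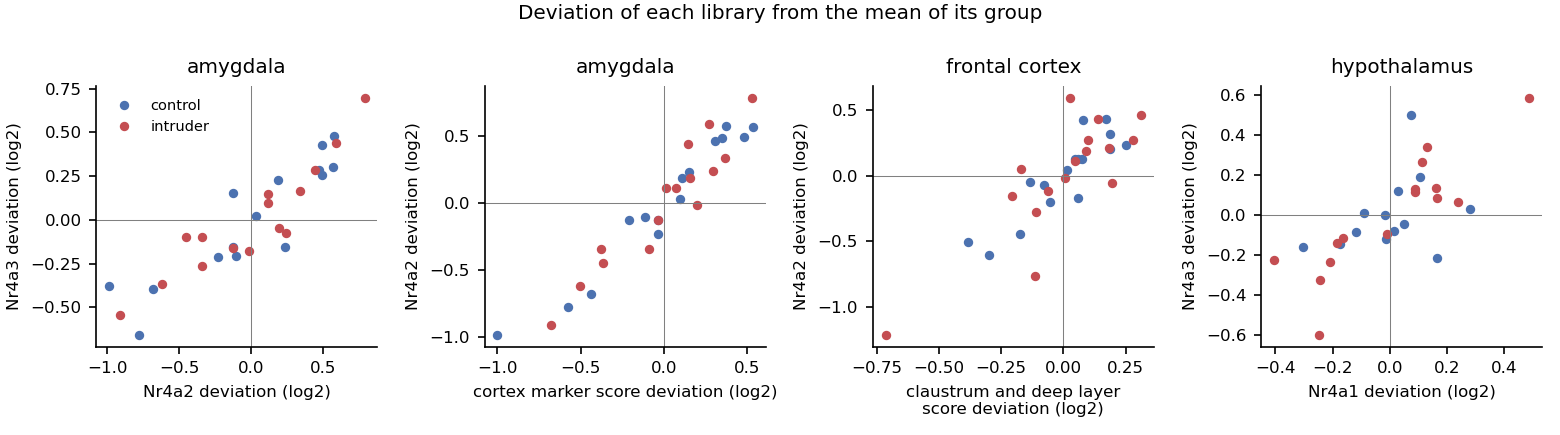
Deviation of each library from its group mean (log2), blue for control and red for intruder: Nr4a3 against Nr4a2 in amygdala (r = 0.91), Nr4a2 against the cortex marker score in amygdala (r = 0.96), Nr4a2 against the claustrum and deep layer score in frontal cortex (r = 0.84) and Nr4a3 against Nr4a1 in hypothalamus (r = 0.73). In the left 2 panels libraries of both conditions lie along 1 line, and in the third panel 1 intruder library lies far to the lower left.

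Genes with the most similar pattern were ranked by Pearson r among the 16634 other genes tested in all 3 regions, as a description. Over the 18 group means, which mostly hold the differences between regions, the 5 genes most like Nr4a1 were Egr1 (0.99), Junb (0.984), Cwc25 (0.979), Egr2 (0.978) and Arc (0.978). Those most like Nr4a3 were Fosb (0.968), Fgfrl1 (0.967), Irf2bpl (0.966), Egr2 (0.963) and Tmem173 (0.958). Egr1, Egr2, Junb, Fosb and Arc are immediate-early genes. By Spearman rho, 2 of the 5 were shared for Nr4a1 and 0 of 5 for Nr4a3, whose closest genes were then Il16, Stn1, Inhbb, Fam13c and Ch25h, none of them on the activity list. Those most like Nr4a2 were Phf21b (0.986), Fap (0.984), Tcap (0.984), Csrnp1 (0.982) and C130074G19Rik (0.982), and none of them is on the activity list used here. By Spearman rho 0 of these 5 were shared.

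With group means removed, over the 90 libraries, the neighbours of Nr4a1 were Junb (0.853), Fos (0.844), Dusp1 (0.836), Arc (0.821) and 1700016P03Rik (0.817). Those of Nr4a3 were Fosl2 (0.81), Fosb (0.79), Lypd1 (0.738), Egr4 (0.735) and Sh3bp4 (0.693). Those of Nr4a2 were Sstr2 (0.713), Rprm (0.712), Tox3 (0.687), Crhbp (0.672) and Mmab (0.669). Nr4a3 was at rank 37 for Nr4a1 (0.538) and Nr4a2 at rank 2322 (0.153). The libraries share dissection and depth, which enter each of these values.

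Other genes of the activity response gave the members' context through a list of 21 immediate-early and late activity genes, among them Fos, Egr1, Arc and Npas4. Intruder against control, edgeR called 0 of the 21 in each of the 9 comparisons, with 0 to 7 at an unadjusted p below 0.05, and 0 were called by DESeq2 or limma voom. The highest of those counts were 4 of 21 in amygdala at 30 min, where 473 of 17277 genes were below 0.05, and in hypothalamus 5 of 21 at 30 min (339 of 17676 genes) and 7 of 21 at 120 min (2037 of 17676 genes). By sign alone, 20 of 21 log2 fold changes were above 0 in hypothalamus at 30 min (median 0.20), 20 of 21 below 0 in frontal cortex at 60 min (median -0.18) and 19 of 21 above 0 there at 120 min (median 0.084). Genes of the list were measured in the same libraries, so these signs are not independent, and no test was run on them. Sign counts of the other comparisons are not given. Between 30 and 120 min in controls, edgeR called 7 of 21 lower in amygdala, 5 of 21 in frontal cortex and 6 of 21 in hypothalamus, and none higher (10, 5 and 7 called by DESeq2 and 7, 4 and 6 by limma voom). Of all genes 0.0868%, 2.48% and 0.0792% were called lower. With the leading index as a block in amygdala, edgeR called 0 of the 21 between 30 and 120 min, in controls and in intruder-exposed residents, and over all genes the calls went from 25 to 0 and from 2584 to 1. The 30 to 120 min comparisons of frontal cortex and hypothalamus could not be fitted with that block. Neither could the 60 to 120 min comparisons of hypothalamus and of frontal cortex controls. Fos and Junb, whose proteins are subunits of the AP-1 factor, and Sik1, a kinase that restrains CREB signalling, were among the called genes in all 3 regions. From 60 to 120 min, within 1 tag, edgeR called 1, 8 and 4 of the 21 in controls of amygdala, frontal cortex and hypothalamus, all lower, where 0.0232%, 15.9% and 0.0396% of genes were called (5, 9 and 6 by DESeq2). In intruder-exposed residents it called 0, 3 (2 lower and 1 higher) and 0 (9, 4 and 9 at an unadjusted p below 0.05; 2, 3 and 3 by DESeq2), where 0.0695%, 22.9% and 0.441% were called.

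From 30 to 120 min in intruder-exposed residents edgeR called 12 of 21 lower and 1 higher in amygdala. It called 8 of 21 lower in frontal cortex and 10 of 21 in hypothalamus. Of all genes 6.09%, 8.66% and 0.962% were called lower and 8.86%, 9.02% and 0.967% higher in these regions. The medians of the list were -0.45, -0.35 and -0.44 in controls and -0.58, -0.29 and -0.46 in intruder-exposed residents, beside medians of all genes tested between -0.0017 and 0.0056. The control and intruder values of a time do not share libraries, but the 3 steps between times do.

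The 16 partners and upstream regulators of NR4A, such as the retinoid X receptors, Creb1, Crtc1 and Mef2c, gave 0 calls in each of the 9 comparisons of intruder and control, with 0 to 4 at an unadjusted p below 0.05. Between 30 and 120 min in controls edgeR called 0 of 16 in amygdala and hypothalamus (2 and 3 at an unadjusted p below 0.05) and 1 of 16 in frontal cortex, Rxra, where 4.42% of genes were called. In intruder-exposed residents 3 were called in amygdala (Creb1, Crebbp and Crtc2), 4 in frontal cortex and 1 in hypothalamus, where 15%, 17.7% and 1.93% of genes were called. From 30 to 60 min 6 of 16 were called in frontal cortex controls and 9 of 16 in intruder-exposed residents, where 35.4% and 45.5% of genes were called. Of 8 genes known to depend on Nr4a2 in dopamine neurons 7 passed the filter on low counts, and edgeR called 0 of 7 in each comparison of intruder and control, with 0 to 2 at an unadjusted p below 0.05. Against hypothalamus, frontal cortex had 5 of the 7 lower, where 42.3% of genes were called lower, and amygdala 5 of the 7 lower, where 35.8% were. They were Ddc, Ret, Slc18a2, Slc6a3 and Th in both cases, genes that encode enzymes, transporters and a receptor of dopamine neurons, while Nr4a2 was higher in both.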

How the data were processed

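Counts per Ensembl gene came from strand-specific, single-end mRNA libraries of 3 brain regions. The deposited table holds raw read counts made by the authors. The submitters' processing notes name CASAVA 1.8.2, TopHat2 2.0.8, HTSeq 0.6.1, edgeR 3.2.4, R 3.0.0 and build NCBIM37. The 5 rows that name no gene were left out of library sizes (no feature 8.63 to 14.46%, ambiguous 0.63 to 0.76% and not unique 9.79 to 11.5% of reads). Reads that aligned to several places are in those rows and in no gene's count, which can lower genes with close copies. Symbols from the reference tables matched 32919 of 37991 identifiers.

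Each region was fitted with its 6 groups in edgeR 4.0.16 (R 4.3.3): filterByExpr, TMM, quasi-likelihood F tests with Benjamini-Hochberg adjustment over the 17277 (amygdala), 17091 (frontal cortex) or 17676 (hypothalamus) genes tested, and Wald intervals. A model of all 90 libraries with the animal as a block compared regions over 18337 genes. Genes with an adjusted p below 0.05 were called. CPM used TMM library sizes over the 90 libraries, and log2 CPM a prior count of 2. Correlations used deviations from group means and 100000 permutations within groups. DESeq2 1.42.0, limma 3.58.1 (voom), DESeq2 size factors, no filter, blocks and left-out libraries were the alternatives. Calling was tested on simulated counts with known changes, where the share of false calls lay above the nominal level between 30 and 120 min in controls of amygdala and frontal cortex and below it in the other comparisons simulated. No 2 libraries of a group agreed within sampling noise (smallest chi-square per gene 4.44).

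The members, lists and tests were chosen with earlier results of these data known. Named genes are the members, the 5 genes most like each member by Pearson r, and genes of the lists and marker lists, of which those named singly were chosen after their values were seen. The cortex and striatum lists each hold 1 gene that is not reported here and is in none of their scores. Protein sequences were not used here.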

Additional observations from a re-analysis of the deposited data

Results flagged for a closer look

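Of 51 checks of whether 1 library stood apart from the others of its group, 4 passed, and chance alone passes about 1 in 20 groups. Control library 1 of amygdala at 30 min had 90.6 CPM of Nr4a1, with 68.7 to 75 CPM in the other 4, and the highest striatum score (1.31 above the group mean, log2) and lowest cortex score (-0.44) of its group. Control library 6 of hypothalamus at 120 min had 12.8 CPM of Nr4a2, with 7.63 to 8.91 CPM in the others, and the lowest hypothalamus and pituitary scores of its group (-0.42 and -0.62). Intruder library 1 of amygdala at 120 min had 45.6 CPM of Nr4a3, with 21.8 to 27.2 CPM in the others, and the highest cortex score of its group (0.53 above the group mean). Control library 2 of hypothalamus at 120 min had 13.3 CPM of Nr4a3, with 8.12 to 9.12 CPM in the others, and the highest cortex score of its group (0.76 above the group mean). Each was the highest of 5, and the causes were not tested.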

How the results depend on the processing

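Values in parentheses are log2 fold changes, correlation coefficients, or, for tests over 3 times, adjusted p-values, and the cause of each change was not tested. None of the alternatives called a member between intruder and control (lowest adjusted p 0.138, Nr4a2 in amygdala at 120 min with the cortex score). No value that changed sign had been called, and 1 was called after changing sign, Nr4a2 in frontal cortex controls from 30 to 60 min with the claustrum score (adjusted p = 0.0162). The members had 260 reads or more in each library, and groups of 3 to 6 libraries limit the precision.

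With DESeq2, calls were gained for Nr4a1 amygdala control 120 against 60 min (-0.72), Nr4a3 amygdala control over 3 times (0.0265) and Nr4a3 amygdala intruder 120 against 60 min (-0.77). Nr4a3 frontal cortex control 120 against 30 min (-0.59), Nr4a3 hypothalamus control 120 against 30 min (-0.84) and Nr4a3 hypothalamus control 120 against 60 min (-0.84) did so too. With DESeq2 size factors in edgeR, calls were gained for Nr4a3 hypothalamus control 120 against 60 min (-0.84) and Nr4a3 frontal cortex against amygdala (0.21). With limma voom, calls were lost for Nr4a1 hypothalamus control 120 against 60 min (-0.68). Nr4a1 frontal cortex control over 3 times (0.0481) and Nr4a3 frontal cortex against amygdala (0.20) gained calls. Nr4a1 frontal cortex intruder against control 30 min (-0.056), Nr4a2 frontal cortex intruder against control 120 min (-0.019) and Nr4a3 frontal cortex intruder against control 30 min (-0.074) changed sign. Without the filter on low counts, calls were lost for Nr4a3 amygdala intruder over 3 times (0.0569). Nr4a3 hypothalamus control 120 against 60 min (-0.84) gained a call.

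Replicate numbers did not pair the libraries: of 41 control and intruder pairs with the same number in 9 sets, 13 correlated above 0.1, from -0.5 to 0.56, no set had every pair above 0.1, and 7 of 44 controls correlated best with their own number. With the replicate number as a block, calls were lost for Nr4a3 hypothalamus control over 3 times (0.0613) and Nr4a3 hypothalamus intruder 120 against 60 min (-0.72). Nr4a3 amygdala control over 3 times (0.0474) gained a call. Nr4a1 frontal cortex control 60 against 30 min (0.028), Nr4a2 amygdala intruder against control 120 min (0.016) and Nr4a2 amygdala intruder against control 60 min (-0.14) changed sign. Nr4a2 frontal cortex intruder against control 120 min (-0.0013), Nr4a2 hypothalamus intruder against control 30 min (0.06) and Nr4a3 amygdala intruder against control 60 min (-0.062) did so too. Nr4a3 frontal cortex intruder against control 30 min (-0.0098) did so too. The block moved the genes called between intruder and control in amygdala at 120 min from 93 to 254. With the first index as a block, calls were lost for Nr4a1 amygdala control 120 against 30 min (-0.96), Nr4a1 amygdala control over 3 times (0.926) and Nr4a1 amygdala intruder 120 against 30 min (-1.12). Nr4a1 amygdala intruder 60 against 30 min (-0.53), Nr4a1 amygdala intruder over 3 times (0.568) and Nr4a3 amygdala intruder over 3 times (0.827) did so too. Nr4a1 frontal cortex intruder 120 against 60 min (0.12), Nr4a2 amygdala control 120 against 30 min (0.33) and Nr4a2 amygdala control 120 against 60 min (0.41) changed sign. Nr4a2 amygdala control 60 against 30 min (-0.08), Nr4a2 frontal cortex intruder 120 against 60 min (0.13) and Nr4a2 hypothalamus intruder against control 120 min (0.07) did so too. Nr4a2 hypothalamus intruder against control 30 min (0.055) and Nr4a3 amygdala intruder against control 120 min (-0.33) did so too. In frontal cortex at 120 min that index and the condition cannot be told apart.

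The 3 marker scores were added as covariates after seeing the data. With the claustrum score as a covariate, calls were lost for Nr4a1 hypothalamus control 120 against 60 min (-0.68) and Nr4a3 hypothalamus intruder 120 against 60 min (-0.74). Nr4a2 frontal cortex control over 3 times (0.0396), Nr4a2 frontal cortex intruder 120 against 30 min (-0.44) and Nr4a2 frontal cortex intruder 60 against 30 min (-0.54) gained calls. Nr4a2 frontal cortex intruder over 3 times (0.00488) did so too. Nr4a2 amygdala intruder against control 120 min (0.047), Nr4a2 amygdala intruder against control 60 min (-0.12) and Nr4a2 frontal cortex control 120 against 30 min (-0.34) changed sign. Nr4a2 frontal cortex control 60 against 30 min (-0.49), Nr4a2 frontal cortex intruder 120 against 60 min (0.092) and Nr4a3 amygdala intruder against control 60 min (-0.046) did so too. With the cortex score, calls were gained for Nr4a1 amygdala control 120 against 60 min (-0.72), Nr4a3 amygdala control 120 against 30 min (-0.69) and Nr4a3 amygdala control 120 against 60 min (-0.72). Nr4a3 amygdala control over 3 times (0.00396), Nr4a3 hypothalamus control 120 against 30 min (-0.92) and Nr4a3 hypothalamus control 120 against 60 min (-0.92) did so too. Nr4a1 frontal cortex control 60 against 30 min (0.01), Nr4a1 frontal cortex intruder against control 30 min (-0.013) and Nr4a2 amygdala control 60 against 30 min (-0.0074) changed sign. Nr4a2 amygdala intruder 120 against 30 min (0.098), Nr4a2 amygdala intruder 120 against 60 min (0.027) and Nr4a2 amygdala intruder against control 120 min (0.30) did so too. Nr4a2 frontal cortex intruder against control 120 min (-0.019), Nr4a2 hypothalamus intruder against control 30 min (0.019) and Nr4a3 frontal cortex intruder against control 30 min (-0.075) did so too. With the striatum score, calls were lost for Nr4a3 hypothalamus control over 3 times (0.0532). Nr4a1 amygdala control 120 against 60 min (-0.70), Nr4a2 amygdala control 120 against 30 min (-0.55) and Nr4a2 amygdala control over 3 times (0.0393) gained calls. Nr4a3 amygdala control 120 against 30 min (-0.90), Nr4a3 amygdala control 120 against 60 min (-0.90) and Nr4a3 amygdala control over 3 times (2.6e-04) did so too. Nr4a3 amygdala intruder 120 against 30 min (-0.48), Nr4a3 amygdala intruder 120 against 60 min (-0.59) and Nr4a3 frontal cortex control 120 against 30 min (-0.61) did so too. Nr4a2 amygdala control 60 against 30 min (-0.044), Nr4a2 amygdala intruder 60 against 30 min (-0.04) and Nr4a2 amygdala intruder against control 120 min (0.29) changed sign. Nr4a2 amygdala intruder against control 60 min (-0.059), Nr4a2 frontal cortex control 120 against 30 min (-0.013) and Nr4a2 frontal cortex control 60 against 30 min (-0.10) did so too. Nr4a2 frontal cortex intruder against control 120 min (-0.0045), Nr4a2 hypothalamus control 60 against 30 min (-0.049) and Nr4a2 hypothalamus intruder against control 60 min (-0.07) did so too. Nr4a3 amygdala intruder against control 60 min (-0.012) did so too.

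In control libraries alone, calls were lost for Nr4a1 with Nr4a3 in frontal cortex (0.49), Nr4a1 with Nr4a3 in hypothalamus (0.34) and Nr4a1 between amygdala and frontal cortex (0.51). Nr4a1 with Nr4a2 in amygdala (-0.094), Nr4a1 with Nr4a3 in amygdala (-0.039) and Nr4a2 between amygdala and frontal cortex (0.037) changed sign. Nr4a2 between frontal cortex and hypothalamus (-0.059) and Nr4a3 between amygdala and frontal cortex (-0.17) did so too. In intruder libraries alone, calls were lost for Nr4a1 between amygdala and frontal cortex (0.46). Nr4a1 between frontal cortex and hypothalamus (-0.0021) changed sign. Without the 2 farthest samples, calls were lost for Nr4a1 with Nr4a3 in frontal cortex (0.46) and Nr4a1 between amygdala and frontal cortex (0.38). With log2 CPM and a pseudocount of 1, calls were gained for Nr4a3 between amygdala and hypothalamus (0.47).

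Leaving out 1 library or 1 replicate number changed a call or a sign in 39 log2 fold changes and tests over 3 times, given with the lowest and highest values. Nr4a1 amygdala control 120 against 60 min (-0.80 to -0.61), Nr4a1 amygdala control over 3 times (0.0086 to 0.0586) and Nr4a1 frontal cortex control 60 against 30 min (-0.077 to 0.042) were such results. Nr4a1 frontal cortex control over 3 times (0.0498 to 0.148), Nr4a1 frontal cortex intruder 120 against 30 min (-0.64 to -0.13) and Nr4a1 frontal cortex intruder 120 against 60 min (-0.20 to 0.0045) followed. Nr4a1 frontal cortex intruder 60 against 30 min (-0.53 to -0.021), Nr4a1 frontal cortex intruder against control 30 min (-0.28 to 0.23) and Nr4a1 frontal cortex intruder over 3 times (0.0105 to 0.715) were others. Nr4a1 hypothalamus control 120 against 60 min (-0.73 to -0.61), Nr4a2 amygdala control 60 against 30 min (-0.075 to 0.25) and Nr4a2 amygdala intruder against control 120 min (-0.28 to 0.11) followed. Nr4a2 amygdala intruder against control 30 min (-0.26 to 0.035), Nr4a2 amygdala intruder against control 60 min (-0.18 to 0.17) and Nr4a2 frontal cortex control 120 against 30 min (-0.0058 to 0.22) were others. Nr4a2 frontal cortex control 120 against 60 min (-0.076 to 0.13), Nr4a2 frontal cortex control 60 against 30 min (-0.055 to 0.18) and Nr4a2 frontal cortex intruder against control 120 min (-0.086 to 0.12) followed. Nr4a2 hypothalamus control 60 against 30 min (-0.18 to 0.33), Nr4a2 hypothalamus intruder against control 120 min (-0.41 to 0.028) and Nr4a2 hypothalamus intruder against control 30 min (-0.26 to 0.27) were others. Nr4a2 hypothalamus intruder against control 60 min (-0.051 to 0.25), Nr4a2 amygdala against hypothalamus (0.41 to 0.71) and Nr4a3 amygdala control 60 against 30 min (-0.046 to 0.18) followed. Nr4a3 amygdala intruder 120 against 30 min (-0.74 to -0.43), Nr4a3 amygdala intruder against control 120 min (-0.13 to 0.20) and Nr4a3 amygdala intruder against control 60 min (-0.079 to 0.16) were others. Nr4a3 amygdala intruder over 3 times (0.00921 to 0.118), Nr4a3 frontal cortex intruder 120 against 30 min (-0.51 to -0.055) and Nr4a3 frontal cortex intruder 60 against 30 min (-0.29 to 0.16) followed. Nr4a3 frontal cortex intruder against control 30 min (-0.27 to 0.18), Nr4a3 frontal cortex intruder over 3 times (0.0486 to 0.407) and Nr4a3 hypothalamus control 120 against 30 min (-0.99 to -0.78) were others. Nr4a3 hypothalamus control 120 against 60 min (-0.99 to -0.78), Nr4a3 hypothalamus control 60 against 30 min (-0.057 to 0.054) and Nr4a3 hypothalamus control over 3 times (0.0108 to 0.128) followed. Nr4a3 hypothalamus intruder 120 against 60 min (-0.84 to -0.67), Nr4a3 hypothalamus intruder 60 against 30 min (-0.29 to 0.011) and Nr4a3 frontal cortex against amygdala (0.14 to 0.33) were others. Without frontal cortex intruder library 5 of 30 min calls were gained for Nr4a1 and Nr4a3 in 5 comparisons of times. The log2 ratio of Nr4a1 to Nr4a3 in amygdala controls between 60 and 120 min, which was not called, ran from -0.029 to 0.29. The calls of that ratio also changed in frontal cortex controls, from 30 to 60 min (gained at -0.41 and -0.38) and from 60 to 120 min (lost at 0.32 to 0.43), while sets of hypothalamus controls from 30 to 60 min (-0.54 to -0.43) were too small to pass.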
